A study of Homo sapiens with 6 samples.

Results

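The mRNA levels of the genes for cAMP-dependent protein kinase (PKA) were followed in PANC-1, an established line of human pancreatic carcinoma cells. The 8 genes were chosen by name and comprise the 4 regulatory subunits PRKAR1A, PRKAR1B, PRKAR2A and PRKAR2B, the catalytic subunits PRKACA and PRKACB, and the inhibitor peptides PKIA and PKIG. They are 8 of the 58825 genes in the deposited expression table, and each name had 1 identifier, so the choice of the identifier with the highest mean expression removed nothing. RNA-seq was run on 6 samples of these cells. In MA PANC-1 (n = 3) the cells had received 40 μM maslinic acid (MA), a plant triterpenoid, for 24 h, and in PANC-1 (n = 3) the labels call them untreated (0 μM). All 6 samples come from this 1 cell line, without any genetic change named in the labels, and the replicates are called biological in the study's methods without further detail, so the p-values measure the spread between these samples. The study's methods give DMSO as the control of its MA treatments in general, and whether these untreated samples received it is not stated. If they did not, MA and its vehicle cannot be told apart. The question was which mRNAs of PANC-1 cells differ after MA.

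PKA is the main intracellular receptor of cyclic AMP. In the inactive holoenzyme a dimer of regulatory subunits holds a pair of catalytic subunits silent. When cyclic AMP binds to the regulatory subunits, active catalytic subunits are set free to phosphorylate their substrates, among them the transcription factor CREB, which binds the cyclic AMP response element (CRE) in promoters. The type I regulatory subunits (PRKAR1A, PRKAR1B) are found largely in the cytosol, the type II subunits (PRKAR2A, PRKAR2B) are mostly tethered to membranes and the cytoskeleton by A-kinase anchoring proteins, and the PKI peptides block free catalytic subunits as pseudosubstrates. Loss of PRKAR1A is a cause of Carney complex, in which PKA is overactive, and PRKAR1A acts as a tumour suppressor in endocrine tissues.

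PRKAR1A was the member with the largest difference, and among the 7 members whose promoters were searched (all but PKIA) it alone held the full CRE letters, TGACGTCA. Of the windows from 250 bases before to 50 bases after a start site in RefSeq (GRCh38.p14), 5 belonged to PRKAR1A, and 2 of these overlapping windows held TGACGTCA, at chr17:68512381-68512388. The same 8 letters stood in 649 of 35116 windows of all genes (1.85%). The window below runs over chr17:68512180-68512479 on the plus strand, with the CRE in capitals 49 bases before its start site. The other window, chr17:68512129-68512428, belongs to a start site 2 bases before the CRE.
PRKAR1A promoter: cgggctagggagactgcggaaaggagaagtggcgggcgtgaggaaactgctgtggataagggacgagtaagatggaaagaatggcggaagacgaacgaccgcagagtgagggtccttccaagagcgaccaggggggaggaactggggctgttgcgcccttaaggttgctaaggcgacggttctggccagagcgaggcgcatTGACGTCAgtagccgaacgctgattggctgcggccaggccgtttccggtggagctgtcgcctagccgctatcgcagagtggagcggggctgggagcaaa
The shorter CRE core TGACG, searched on both strands and also counted inside TGACGTCA, was in 4 of the 5 PRKAR1A windows, 1 of 2 for PRKACA, 1 of 5 for PRKACB, 2 of 6 for PRKAR1B and the single window of PRKAR2A. It was in neither window of PKIG nor in the window of PRKAR2B, and it was in 24.6% of all windows. These are matches of letters, and binding of CREB was not measured. Whether the CRE has a part in the difference in PRKAR1A was not tested.

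The deposited table gives each gene an FPKM value (fragments per kilobase of gene, scaled to sequencing depth) and an estimated read count in every sample. Library totals of these counts were, in replicate order, 56978375, 63984133 and 58181114 after MA and 70275355, 65607669 and 59422939 without it. In every sample this is more than the valid reads listed for the library in the study's supplement, so the counts are not numbers of independent reads, and the precision was taken from the spread between replicates. Halving all counts changed neither the direction nor the call of any member. One library stood apart. On the first principal component of all genes tested, which held 26.4% of the variance, MA PANC-1 2 lay at -73.6, beyond MA PANC-1 1 (-29.5), while MA PANC-1 3 (16.2) lay close to the untreated samples (18.05 to 44.9). The mean GC content of its transcripts, weighted by their counts, was 52.2%, against 50.9% to 51.4% in the other libraries. For differences between the groups that rest on MA PANC-1 2, values without it, or after the GC trend of each library was removed, are therefore given as well.

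The label of the cells was checked against marker genes. The epithelial keratins KRT18 (278 to 338 FPKM) and KRT8 (141 to 225 FPKM) and the mesenchymal filament gene VIM (521 to 754 FPKM) were abundant in every sample, KRT7 was low (1.40 to 2.19 FPKM) and the ductal keratin KRT19 was near 0 (at most 0.109 FPKM). The groups overlapped for KRT18, KRT8, KRT7 and VIM, whose log2 fold changes were -0.10, -0.17, -0.33 and -0.19 without an unadjusted p under 0.05 by edgeR. With the GC trend removed these were -0.21, -0.31, -0.45 and -0.26, with unadjusted p of 0.0090, 0.0436, 0.0140 and 0.0295 by edgeR, and their part in the results was not tested. Of 14 markers of other cell types, the leukocyte genes PTPRC and CD3E were at or near the value listed for no reads. So were the acinar genes PRSS1 and CPA1 and the endocrine genes INS and GCG. CD68, also taken as a leukocyte gene, was highest at 25.6 to 40.9 FPKM. Of the fibroblast genes, COL1A1 (2.64 to 5.96 FPKM) and LUM (0.351 to 0.616 FPKM) were also read, while DCN was at most 0.0107 FPKM. CD68, COL1A1 and LUM, the 3 that could be tested, had overlapping groups and no unadjusted p under 0.05 by edgeR. In RNA from whole cultures, fewer cells of a type and less RNA per cell cannot be told apart.

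Among the 8 genes, PANC-1 cells expressed 1 major and 3 lesser regulatory subunit mRNAs, both catalytic subunits and, of the inhibitors PKIA and PKIG, mainly PKIG. On the FPKM scale, which allows levels of different genes to be compared per length, untreated PANC-1 cells held most PRKAR2A (23.6 ± 2.15 FPKM; mean ± SD, n = 3 here and below) and PRKACB (23.1 ± 2.27 FPKM), followed by PKIG (20.7 ± 0.874 FPKM). The samples of PRKAR2A and PRKACB overlapped, as did those of PRKACB and PKIG, so the order of these neighbours was within their spread. PRKACA came next at 13.97 ± 1.13 FPKM, then PRKAR1A at 7.18 ± 0.232 FPKM and PRKAR1B at 4.96 ± 0.460 FPKM, each below its neighbour in all samples. PRKAR2B was at 0.900 ± 0.0483 FPKM, and PKIA was almost silent at 0.0581 ± 0.0288 FPKM. In MA PANC-1 the order differed in the middle. PRKAR2A (26.4 ± 1.26 FPKM) and PKIG (22.9 ± 2.30 FPKM) overlapped at the top, while PRKACA (17.6 ± 2.26 FPKM), PRKACB (17.0 ± 3.93 FPKM) and PRKAR1A (15.0 ± 3.38 FPKM) overlapped one another.

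**Figure D1:**
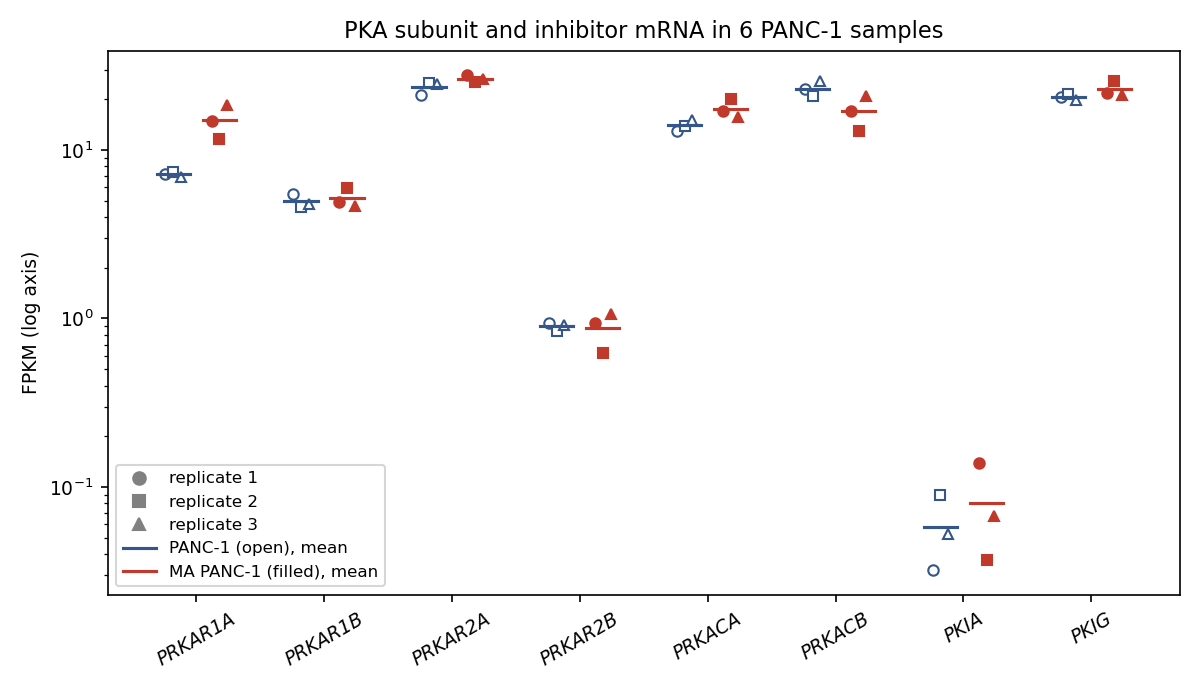
FPKM on a log axis of the 8 PKA genes in the 3 PANC-1 samples (open, blue) and the 3 MA PANC-1 samples (filled, red), with replicate numbers 1 to 3 as circles, squares and triangles and the group means as bars. PRKAR1A lies at 11.6 to 18.4 FPKM after MA and at 6.94 to 7.40 FPKM without it, and the other genes differ by much less.

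PRKAR1A (ENSG00000108946, chr17:68511780-68551319, plus strand, GRCh38) encodes RIα, the type I regulatory subunit found in most tissues. Its level was 14.9, 11.6 and 18.4 FPKM after MA (replicates 1, 2 and 3, the order kept below) and 7.22, 7.40 and 6.94 FPKM without it. The estimated counts were 6878, 6077 and 8723 after MA and 4135, 3961 and 3357 without it. Every treated sample lay above every untreated one, the untreated samples were close together, and MA PANC-1 2 was the lowest of the treated. The log2 fold change was 1.09 (standard error 0.15), on a ratio of mean FPKM of 2.08. It was 1.21 without MA PANC-1 2, and between 0.94 and 1.11 when any other sample was left out. With the GC trend removed it was 1.14. PRKAR1A is among the differentially expressed genes (DEGs) that the study listed from these same samples, so its difference is given as a description without a p-value. Its gene overlaps only weakly read genes on either strand (at most 49 counts), and its pseudogene PRKAR1AP1 had no counts in any sample.

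The other members were tested among 17774 genes whose FPKM averaged 0.1 or more across all 6 samples, by edgeR's quasi-likelihood test with Benjamini-Hochberg adjustment. Of the 6 members tested beside PRKAR1A, none had an adjusted p under 0.05, where 7 of the 17774 genes (0.0394%) did. At an unadjusted p under 0.05 PRKACA was higher and PRKACB lower, 2 of the 6, against 11.2% of all genes tested in both directions (5.37% higher, 5.86% lower). DESeq2 and limma on log2(FPKM + 0.1) also gave 0 of the 6 by adjusted p and 2 by unadjusted p. Of all 17774 genes DESeq2 gave 263 by adjusted p and 2150 by unadjusted p, and limma gave 8 and 1964. No member but PRKAR1A reached a fold change of 2, and the study's thresholds (an unadjusted p under 0.05 with a fold change of 2 or more, or 0.5 or less) were passed by 342 genes (1.92%; 0.675% higher and 1.25% lower). The groups did not overlap for PRKAR2A and PRKACA, which were higher after MA, or for PRKACB, which was lower, where 8.79% of all genes tested were higher and 11.1% lower without overlap. The median log2 fold change of the 7 tested members, PRKAR1A included, was 0.19, and that of all genes tested was -0.0017.

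Among the remaining regulatory subunits, PRKAR2A stayed the most abundant. PRKAR2A (ENSG00000114302, chr3:48744597-48847874, minus strand) encodes RIIα, the widely expressed type II subunit. It was at 27.7, 25.1 and 26.3 FPKM after MA and at 21.1, 24.9 and 24.8 FPKM without it. The groups were separate only by a narrow margin, since MA PANC-1 2 and PANC-1 2 and 3 were nearly level, and with the GC trend removed they overlapped, MA PANC-1 2 (24.6 FPKM) being below PANC-1 2 (24.8 FPKM) and PANC-1 3 (25.2 FPKM). Its log2 fold change was 0.19 (standard error 0.10, edgeR adjusted p = 0.481), and 0.12 without PANC-1 1. The antisense gene PRKAR2A-AS1, which overlaps it, was at a mean of 0.428 FPKM.

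PRKAR1B (ENSG00000188191, chr7:549197-727650, minus strand) encodes RIβ, a type I subunit best known from the brain. It was at 4.94, 5.98 and 4.68 FPKM after MA and at 5.48, 4.61 and 4.78 FPKM without it, so the groups overlapped. Between the groups the log2 fold change was 0.11 (standard error 0.16, edgeR adjusted p = 0.801), and it was -0.04 both without MA PANC-1 2 and after the GC trend was removed. DNAAF5, which overlaps it on the opposite strand, had its highest count in the same sample, 4545 in MA PANC-1 2 against 2568 to 3814 in the others. Whether the counting used the strand of the reads is not given in the sources used here, so reads of the 2 genes cannot be told apart.

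PRKAR2B (ENSG00000005249, chr7:107044705-107161811, plus strand) encodes RIIβ, a type II subunit prominent in brain and fat. At 0.934, 0.626 and 1.06 FPKM after MA and 0.944, 0.848 and 0.909 FPKM without it, both the lowest and the highest value were in treated samples. Its log2 fold change was -0.02 (standard error 0.22, edgeR adjusted p = 0.981), with values from -0.16 to 0.14 when 1 sample was left out and 0.24 after the GC trend was removed.

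The catalytic subunits stood on opposite sides. PRKACA (ENSG00000072062, chr19:14091688-14118084, minus strand) encodes Cα, the catalytic subunit that dominates in many tissues. It was at 17.1, 20.1 and 15.7 FPKM after MA and at 12.9, 13.9 and 15.1 FPKM without it. All treated samples were above the untreated ones, and MA PANC-1 2 was highest. The log2 fold change was 0.38 (standard error 0.14), with an unadjusted p of 0.0297 and an adjusted p of 0.431 by edgeR. The exact two-sided permutation test over the 6 samples gave 0.1, the smallest p that 3 samples against 3 allow. Without MA PANC-1 2 the log2 fold change was 0.23 (edgeR unadjusted p = 0.0530), and with the GC trend removed it was 0.27 (edgeR unadjusted p = 0.0228). The edgeR unadjusted p of PRKACA was also over 0.05 without PANC-1 1 (0.0995) and without PANC-1 2 (0.0713).

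PRKACB (ENSG00000142875, chr1:84078062-84238498, plus strand) encodes Cβ, the second widely expressed catalytic subunit. It was at 17.0, 13.03 and 20.88 FPKM after MA and at 22.9, 20.95 and 25.5 FPKM without it. The treated samples were the lower, with MA PANC-1 2 lowest of all, but MA PANC-1 3 and PANC-1 2 were nearly level. The log2 fold change was -0.41 (standard error 0.15), with an unadjusted p of 0.0298 and an adjusted p of 0.431 by edgeR, and the exact permutation test gave 0.1. Without MA PANC-1 2 it was -0.29 (edgeR unadjusted p = 0.0563), and the unadjusted p was also over 0.05 without MA PANC-1 1 (0.0733), PANC-1 1 (0.0613) or PANC-1 3 (0.0984). The GC content of the transcripts was 36.7% for PRKACB, lower than in all but 1.78% of the genes tested, and 55.9% for PRKACA, above the median of 49.97%. After the GC trend of each library was removed, PRKACB was at 18.5, 19.4 and 18.9 FPKM after MA and at 20.2, 19.5 and 21.2 FPKM without it, and its log2 fold change was -0.06 (edgeR unadjusted p = 0.415). Under this setting the difference in PRKACB was smaller, with MA PANC-1 2 and PANC-1 2 nearly level, and that in PRKAR1A was as large as before.

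**Figure D2:**
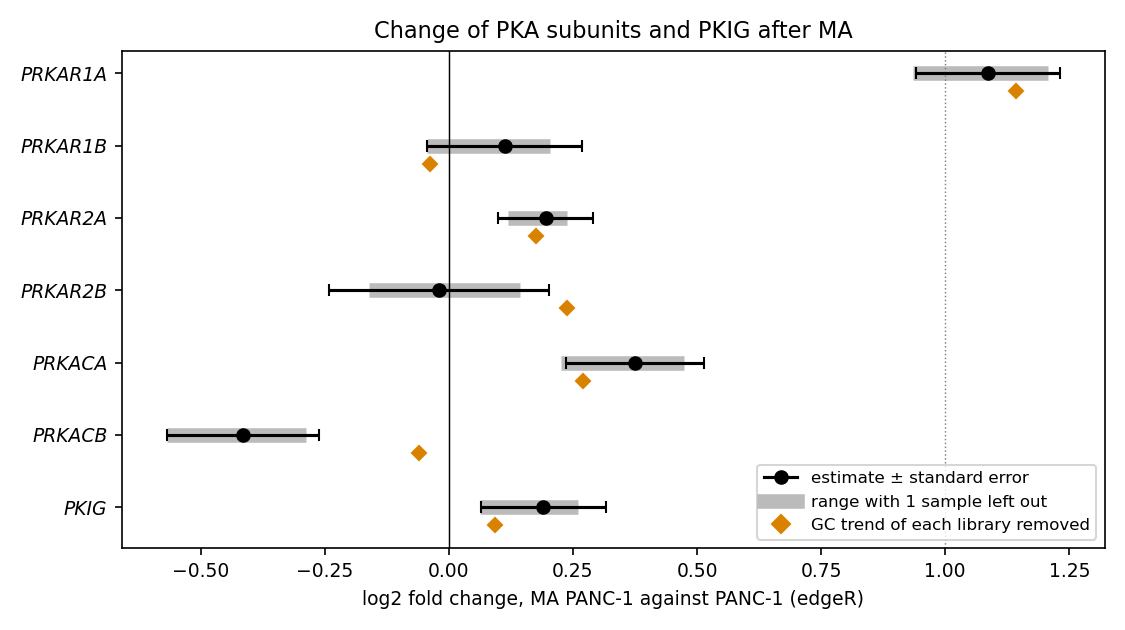
Log2 fold change of MA PANC-1 against PANC-1 by edgeR for the 7 PKA genes tested, with the estimate and its standard error (black), the range when 1 of the 6 samples was left out (grey) and the estimate after the GC trend of each library was removed (orange); the dotted line marks a fold change of 2. PRKAR1A stays near 1 in each setting, while PRKACB goes from -0.41 to -0.06 with the GC trend removed.

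Between the inhibitor peptides PKIA and PKIG, PKIG had by far the higher level, and a related inhibitor outside the 8 genes, PKIB, is given with the lists. PKIG (ENSG00000168734, chr20:44531785-44619037, plus strand) encodes PKIγ, the widely expressed form. It was at 21.9, 25.5 and 21.3 FPKM after MA and at 20.5, 21.6 and 19.9 FPKM without it. The groups overlapped, and the highest value was again in MA PANC-1 2. PKIG had a log2 fold change of 0.19 (standard error 0.13, edgeR adjusted p = 0.573), and 0.06 without MA PANC-1 2. PKIA (ENSG00000171033), which encodes PKIα, was below the FPKM minimum and was not tested. Its counts were 38, 12 and 19 after MA and 11, 29 and 16 without it, and the groups overlapped.

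Across the 6 samples, on log2(FPKM + 0.1), PRKACB and PKIG ran opposite to each other (Pearson's r -0.97), as did PRKACB and PRKACA (r -0.85), while PRKACA and PKIG ran together (r 0.81). These 6 points share the 2 groups and the position of MA PANC-1 2 at the end of each range, and the values are a description only. The correlations were not computed without MA PANC-1 2 or with the GC trend removed. PKIG transcripts had a GC content of 55.4%, near that of PRKACA (55.9%) and above that of PRKACB (36.7%). The part of GC content in the correlations was not tested. PRKAR1A followed none of the other members as closely, with r from -0.49 (PRKACB) to 0.69 (PRKAR2A). The 3 genes most like PRKAR1A among 11469 expressed at a mean of 1 FPKM or more were TTPAL (r 0.990), EMP1 (r 0.987) and SLC47A1 (r 0.985). TTPAL, which encodes a relative of the α-tocopherol transfer protein, was at 4.14, 3.22 and 5.57 FPKM after MA and at 0.973, 1.17 and 0.972 FPKM without it. In EMP1, an epithelial membrane protein gene, the values were 3.96, 2.91 and 4.58 FPKM against 1.27, 1.36 and 1.003 FPKM. SLC47A1, a transporter of organic cations, was at 4.29, 3.97 and 6.20 FPKM against 2.24, 2.52 and 2.41 FPKM. They were chosen for this likeness over the same 6 samples, so their likeness to PRKAR1A is no separate observation.

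Set together per length, regulatory subunit mRNA was higher in every MA treated sample, and the catalytic subunit sums overlapped. The summed level of the 4 regulatory subunits was 48.4, 43.4 and 50.4 FPKM after MA and 34.8, 37.8 and 37.4 FPKM without it, that is 47.4 ± 3.63 against 36.7 ± 1.64 FPKM without overlap. Summed PRKACA and PRKACB came to 34.1, 33.1 and 36.5 FPKM after MA and 35.8, 34.8 and 40.6 FPKM without it, with overlapping groups (34.6 ± 1.77 against 37.1 ± 3.12 FPKM). The regulatory to catalytic ratio was 1.42, 1.31 and 1.38 after MA and 0.973, 1.09 and 0.920 without it. Thus untreated cells held about as much of one class as of the other, and all 3 treated samples held more regulatory than catalytic mRNA. The means were 1.37 ± 0.0553 and 0.993 ± 0.0844, and with the GC trend removed 1.32 and 1.06, with MA PANC-1 2 (1.16) then close to PANC-1 2 (1.12). Since PRKAR1A enters these sums, no test was made on them. Without PRKAR1A the other regulatory subunits stood to the catalytic ones at 0.984, 0.959 and 0.877 after MA and at 0.771, 0.873 and 0.750 without it, which left the groups apart by 0.877 against 0.873 only. With the GC trend removed this ratio overlapped between the groups (0.942, 0.820 and 0.923 after MA, 0.834, 0.905 and 0.838 without it).

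The make-up of each class also differed between the groups. PRKAR1A made up 30.7%, 26.8% and 36.5% of regulatory subunit mRNA after MA and 20.8%, 19.6% and 18.6% without it, and PRKAR2A correspondingly 57.1%, 57.9% and 52.2% against 60.8%, 66.0% and 66.2%. PRKAR2A was thus the larger share in every sample. PRKACB made up 50.0%, 39.4% and 57.1% of catalytic subunit mRNA after MA and 64.0%, 60.2% and 62.7% without it. With the GC trend removed, where MA PANC-1 2 was no longer lowest, these shares were 52.2%, 52.5% and 53.7% against 60.1%, 58.1% and 57.1%, so that the group means lay closer together and the groups still did not overlap. The ratio of summed PKIA and PKIG to catalytic mRNA overlapped between the groups (0.668 ± 0.0959 against 0.563 ± 0.0672), and so it did with PKIB added to the inhibitors (0.856 ± 0.0549 against 0.768 ± 0.0775). mRNA levels do not give the amounts of the proteins, which were not analysed here. The study lists PRKAR1A as higher in mRNA but lower in protein after MA, the protein difference without a significant p-value.

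**Figure D3:**
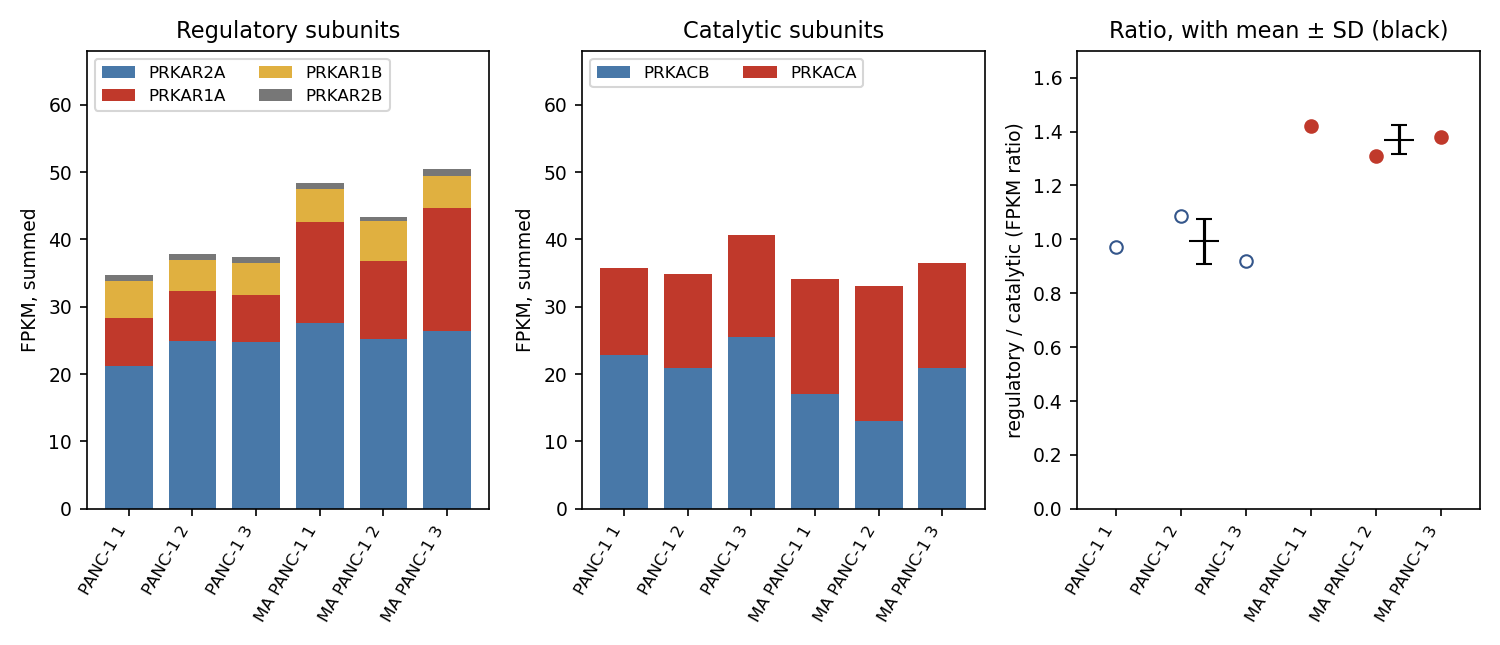
Summed FPKM of the regulatory subunits (left) and the catalytic subunits (middle) in each of the 6 samples, stacked by gene, and their ratio (right; open for PANC-1, filled for MA PANC-1, with mean ± SD in black). The PRKAR1A segment is the taller in the 3 MA PANC-1 samples, whose ratios of 1.31 to 1.42 lie above the 0.920 to 1.09 of the PANC-1 samples.

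The genes around PKA were followed in lists that ran from receptor to target. Of 122 listed genes 120 were in the table and 79 were tested, and none had an adjusted p under 0.05 by edgeR or limma. By edgeR with the GC trend removed 1 of the 79 did, AKAP12, beside 31 of 17721 genes tested. By DESeq2 2 of the 79 did, AKAP12 and NR4A1, beside 263 of all 17774 genes tested. At an unadjusted p under 0.05 by edgeR 5 were higher and 11 lower, 20.3% of the 79 against 11.2% of all genes tested. Without PDE4B and ADORA2A these were 5 and 9 of 77 (18.2%). With the GC trend removed 12 of the 79 had such a p by edgeR, beside 2468 of 17721 genes tested. Limma on log2(FPKM + 0.1) also gave 12, beside 1964 of 17774. Leaving out 1 sample gave 8 to 20 such genes, where the number among all 17774 genes ran from 1178 to 3213. Past the study's thresholds were PDE4B, ADORA2A and NR4A2, all lower, and no count is drawn from them, since PDE4B and ADORA2A averaged under 0.1 FPKM after MA and entered the test only through the untreated group. The median log2 fold change of the 79 genes was -0.04. Of the genes named below, AKAP12, NR4A1, NR4A2 and MAP2, and PDE4B with that limit, had an unadjusted p under 0.05 in 6 of 6 edgeR fits with 1 sample left out, and the other named genes of the 16 in 1 to 5 of 6. Without MA PANC-1 2 the edgeR unadjusted p was over 0.05 for AKAP8L (0.0597), AKAP11 (0.0859), RAB32 (0.0509), PDE8B (0.0743), ADORA2A (0.0725), AREG (0.0876) and SCG2 (0.109). With the GC trend removed it was over 0.05 for AKAP8L (0.0623), AKAP11 (0.0752), NBEA (0.0549), GNAI1 (0.321), AREG (0.285) and SCG2 (0.0682).

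Upstream, 2 of 7 tested receptors coupled to the stimulatory G protein were lower at an unadjusted p under 0.05, ADORA2A and PTGER4. Since ADORA2A entered the test only through the untreated group, the count to set beside the 11.2% of all genes tested is 1 of 6 (16.7%). PTGER4, the EP4 prostaglandin receptor, was at 3.05, 3.95 and 4.19 FPKM after MA and at 5.32, 5.63 and 4.43 FPKM without it, with a log2 fold change of -0.42 (standard error 0.18, edgeR adjusted p = 0.443). TTC33 overlaps it on the opposite strand and was read at similar counts. ADORA2A, an adenosine receptor, had 1, 11 and 65 counts after MA and 579, 57 and 527 without it, a log2 fold change of -3.76 (standard error 1.26, edgeR adjusted p = 0.425) with overlapping groups. Its read-through partner SPECC1L-ADORA2A on the same strand had 273, 540 and 221 counts after MA and 0, 428 and 0 without it, so the samples where one was high had little of the other, and the division of reads between them is uncertain. ADORA2B, the most abundant receptor of the list at 51.9 ± 1.68 FPKM after MA and 48.2 ± 1.25 FPKM without it, had a log2 fold change of 0.14 (standard error 0.08, edgeR adjusted p = 0.501). All its treated samples were above the untreated ones. With the GC trend removed, PTGER4 (0.0133) and ADORA2A (0.0249) kept an edgeR unadjusted p under 0.05. ADORA2B (log2 fold change 0.14, edgeR unadjusted p = 0.0349) and MC1R (-0.39, 0.0428) were then under it too, beside 2468 of 17721 genes tested.

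Of 5 G protein α subunits that act on adenylyl cyclase, the inhibitory GNAI1 was at 0.438 ± 0.0514 FPKM after MA and 0.594 ± 0.0627 FPKM without it, a log2 fold change of -0.40 (standard error 0.14, edgeR adjusted p = 0.429) that was -0.13 with the GC trend removed. The most abundant, GNAI2, had overlapping groups (48.8 ± 3.83 and 45.0 ± 1.83 FPKM). Adenylyl cyclases make cyclic AMP, and 5 of 10 were tested. Of these 1 (20.0%), which was higher after MA, had an unadjusted p under 0.05, beside 11.2% of all genes tested in both directions. ADCY6 was at 7.48, 9.28 and 7.20 FPKM after MA and at 6.35, 6.20 and 5.999 FPKM without it, every treated sample being above the untreated ones. ADCY6 had a log2 fold change of 0.41 (standard error 0.14, edgeR adjusted p = 0.429), which was 0.25 without MA PANC-1 2, its highest sample, and 0.30 with the GC trend removed. ADCY3, the most abundant cyclase, overlapped between the groups (9.65 ± 1.41 and 9.47 ± 0.397 FPKM).

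Phosphodiesterases break cyclic AMP down. Of the 8 tested, 7 had a log2 fold change below 0, with a median of -0.25, where 50.2% of all genes tested were below 0. Leaving out PDE4B, which entered the test only through the untreated group, 6 of 7 were below 0, and 1 of 7 (14.3%), PDE8B, had an unadjusted p under 0.05, beside 11.2% of all genes tested. PDE4B, a cyclic AMP-specific enzyme, was low throughout, at 0.0556, 0.0903 and 0.0694 FPKM after MA and 0.181, 0.156 and 0.225 FPKM without it. Its mean after MA, 0.0718 FPKM, was under the minimum for testing, which it passed only through the untreated samples, so its difference (log2 fold change -1.32, standard error 0.32, edgeR adjusted p = 0.375) is given as a description. PDE8B was at 0.293 ± 0.0916 FPKM after MA and 0.511 ± 0.101 FPKM without it (log2 fold change -0.77, standard error 0.28, edgeR adjusted p = 0.431), and it overlaps WDR41, a gene with far more reads on the opposite strand. PDE8A, the most abundant, was lowest in MA PANC-1 2, at 7.16 FPKM, and its other samples lay between 12.7 and 15.1 FPKM.

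A-kinase anchoring proteins hold PKA, mostly through the type II subunits, near its substrates. Of 19 tested, 3 were higher and 3 lower at an unadjusted p under 0.05 (31.6%, beside 11.2% of all genes tested), with a median log2 fold change of -0.04. With the GC trend removed, AKAP8L, AKAP11 and NBEA were over 0.05 by edgeR, with no further gene of the list under it. Of all genes, 2468 of 17721 were then under 0.05. Without MA PANC-1 2, AKAP8L, AKAP11 and RAB32 were over 0.05, where 1834 of 17774 genes were under it. AKAP12 (gravin), a scaffold at the plasma membrane that also binds protein kinase C, was at 27.7, 20.4 and 29.6 FPKM after MA and at 46.7, 48.3 and 47.3 FPKM without it. The untreated samples were close together and all treated ones far below them. For AKAP12 the log2 fold change was -0.84 (standard error 0.12, edgeR adjusted p = 0.149), between -0.93 and -0.73 when 1 sample was left out, and -0.83 with the GC trend removed (edgeR adjusted p = 0.0444). MAP2, a microtubule-associated protein that anchors PKA, was at 0.668, 0.326 and 0.605 FPKM against 0.259, 0.301 and 0.304 FPKM (log2 fold change 0.91, standard error 0.27, edgeR adjusted p = 0.388). NBEA (neurobeachin) was at 0.426 ± 0.0604 FPKM after MA and 0.646 ± 0.0647 FPKM without it (log2 fold change -0.57, standard error 0.17, edgeR adjusted p = 0.394), and its log2 fold change was -0.36 with the GC trend removed. AKAP8L, a nuclear protein, was at 9.96 ± 1.18 FPKM after MA and 7.94 ± 0.513 FPKM without it (log2 fold change 0.36, standard error 0.13, edgeR adjusted p = 0.429). EZR (ezrin), the most abundant anchoring protein, was at 137 ± 5.34 and 129 ± 7.76 FPKM with overlapping groups.

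Downstream, CREB and its coactivators gave no difference at an unadjusted p under 0.05 among 8 genes tested by edgeR. The most abundant of them on the mean of all 6 samples, ATF1, overlapped between the groups (7.93 ± 1.76 and 9.39 ± 0.794 FPKM). In MA PANC-1 alone, CRTC2 had a higher mean than ATF1. Of 14 tested genes known as CREB targets, 1 was higher and 3 were lower at an unadjusted p under 0.05 (28.6%, beside 11.2% of all genes tested), and the log2 fold change was above 0 in 4 and below 0 in 10. AREG and SCG2 were over 0.05 by edgeR without MA PANC-1 2. They were also over 0.05 with the GC trend removed, with no further gene under it, beside 2468 of 17721 genes tested. The log2 fold changes of PTGS2 (0.09) and RGS2 (0.07) were then above 0. NR4A1, an orphan nuclear receptor gene of the immediate early response, was at 1.06, 1.299 and 1.24 FPKM after MA and at 0.749, 0.809 and 0.793 FPKM without it. All treated samples were above the untreated ones, with a log2 fold change of 0.65 (standard error 0.17, edgeR adjusted p = 0.388). Its relative NR4A2 lay on the other side, at 0.214, 0.206 and 0.253 FPKM after MA and 0.551, 0.317 and 0.579 FPKM without it, a log2 fold change of -1.05 (standard error 0.31, edgeR adjusted p = 0.388). AREG (amphiregulin), a ligand of the EGF receptor and the most abundant gene of the list, was at 31.5, 23.7 and 31.1 FPKM against 37.2, 44.4 and 33.0 FPKM. Its log2 fold change was -0.38 (standard error 0.15, edgeR adjusted p = 0.435), and -0.17 with the GC trend removed. SCG2 (secretogranin II) was at 0.318 ± 0.0513 FPKM after MA and 0.556 ± 0.161 FPKM without it (log2 fold change -0.76, standard error 0.32, edgeR adjusted p = 0.443). The median log2 fold change of the CREB target genes was -0.09.

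In 3 further lists no gene had an unadjusted p under 0.05 by edgeR. Of 2 other genes of the PKA family tested, the inhibitor PKIB was at 6.57 ± 1.86 FPKM after MA and 7.58 ± 0.639 FPKM without it. Of 3 other cyclic AMP effectors tested, POPDC3, a membrane protein that binds cyclic AMP, was the most abundant, at 7.03 ± 1.53 and 7.10 ± 0.770 FPKM. Of 8 genes for PKA turnover and substrates, VASP, an actin regulator phosphorylated by PKA, was the most abundant, at 23.2 ± 4.41 and 22.3 ± 2.49 FPKM.

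**Figure D4:**
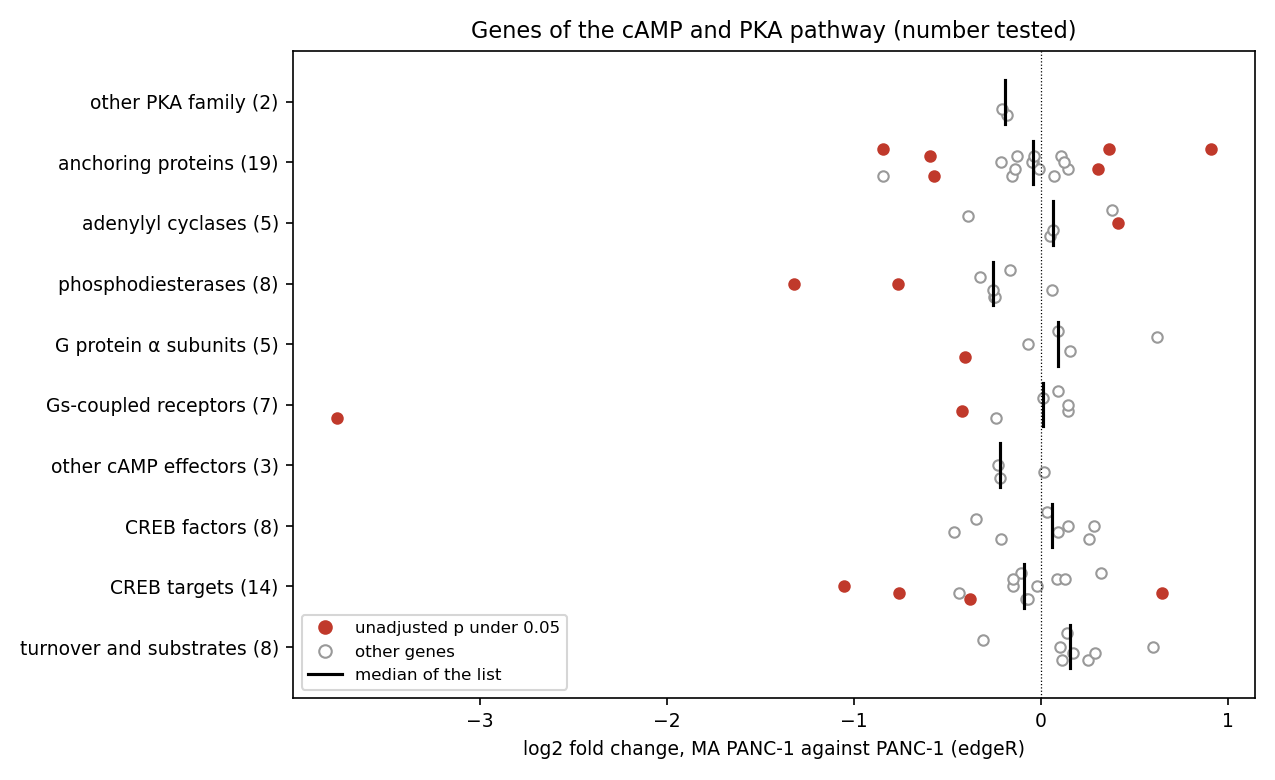
Log2 fold change of MA PANC-1 against PANC-1 by edgeR for each tested gene of the cyclic AMP and PKA pathway lists (rows, number tested in brackets), with genes at an unadjusted p under 0.05 filled in red and the median of each list as a bar. The red genes lie on both sides of 0, the farthest being ADORA2A at -3.76, and no list median is beyond -0.25 or above 0.16.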

How the data were processed

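Poly(A) RNA of 3 MA PANC-1 and 3 PANC-1 samples was sequenced from strand-marked libraries. The submitters' processing notes name cutadapt 1.9, HISAT2 2.0.4, StringTie 1.3.4d, edgeR and DESeq2 without roles, and no build. Gene positions equalled GENCODE 29 (GRCh38) for 47556 of 58552 shared identifiers. The authors deposited FPKM, normalized by gene length and depth (0.0001 for no reads), and a whole-number estimated count, not normalized.

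Counts were fitted with edgeR 4.0.16 (R 4.3.3, TMM factors, treatment as the only term), for 17774 genes averaging 0.1 FPKM or more. Standard errors are the log2 fold change divided by the square root of F, and p-values were adjusted over all genes tested. Alternatives were DESeq2 1.42.0, limma 3.58.1 on log2(FPKM + 0.1, 1 or 0.01), RLE and upper-quartile factors, other filters, the replicate number as a block, each sample left out, halved counts and sums with overlapping genes. Removal of each library's GC trend was added after seeing the data. Scripts were tested on simulated data.

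The members and lists were chosen with earlier results of these data known. Named with their levels were the members, up to 4 genes per list with an unadjusted p under 0.05, and the 3 genes most correlated with PRKAR1A. So was the most abundant gene of each list by the mean of all 6 samples. PDE4A and PER1 were not analysed here.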

Additional observations from a re-analysis of the deposited data

How the results depend on the processing

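PRKAR1A, PRKAR2A and PKIG kept the direction of their log2 fold change in 18 of 18 alternatives. PRKACA kept its direction but had an unadjusted p over 0.05 in 3 of them, all with 1 sample left out, and PRKACB in 5, 4 of these with 1 sample left out and the other with the GC trend removed. The log2 fold change of PRKAR1B ran from -0.045 (without MA PANC-1 2) to 0.20 with 1 sample left out, and was -0.039 with the GC trend removed. That of PRKAR2B ran from -0.16 to 0.14 with 1 sample left out (0.14 without MA PANC-1 2, 0.01 without PANC-1 1), and was 0.24 with the GC trend removed. The cause was not tested.

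The number of genes past the study's thresholds was 342, and it was 569 without the filter, 93 with a minimum mean of 1 FPKM and 44 by limma on log2(FPKM + 1). It ran from 326 to 534 with 1 sample left out, the highest being without MA PANC-1 3. The 7 genes with an adjusted p under 0.05 by edgeR became 263 by DESeq2, 12 with a minimum mean of 1 FPKM and 31 with the GC trend removed, and 3 to 24 with 1 sample left out (24 without MA PANC-1 2, 4 without MA PANC-1 1, 3 without PANC-1 2). Of the 79 pathway genes 16 had an unadjusted p under 0.05 by edgeR, beside 1995 of all 17774 genes tested. Leaving out 1 sample gave 8 to 20 (8 without PANC-1 3, 10 without PANC-1 1), beside 1178 to 3213 of 17774. Removing the GC trend gave 12 of the 79, beside 2468 of 17721. A minimum mean of 1 FPKM, which only part of the 79 reached, gave 8, beside 1485 of 11470 genes.

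With the replicate number as a block 0 genes had an adjusted p under 0.05 by edgeR, 2215 had an unadjusted p under 0.05 and no call of a member changed. Deviations of samples with the same number correlated at 0.029, 0.050 and 0.072, so the numbers were not taken to pair the samples, although each sample correlated best with its own number. With 3 samples a group and from 56978375 to 70275355 estimated counts a sample, precision rests on the spread between replicates.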
